A study of Bos taurus with 4 samples.

Results

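MIER1 is a nuclear repressor protein that brings histone deacetylases to chromatin. Its brightest probe gave a 7.94-fold higher signal in sperm of low-fertile than of high-fertile buffalo bulls, while a second gave a 1.36-fold higher signal, a difference that shrank to near 0 under another scaling, and the other 3 were not well above background. Of its partners, HDAC1 was 1.51-fold lower, a call that was lost in 8 of 16 alternative analyses, and no other that could be tested passed the test. The genes described here are MIER1, its relatives MIER2 and MIER3, the class I histone deacetylases HDAC1, HDAC2 and HDAC3, and the scaffold proteins RCOR1, MTA1 and MTA2, which hold HDAC1 and HDAC2 in other complexes. All sample probes with these gene names were taken from the scanner files, which gave 20 probes of 9 genes among 51282 probes with 32429 gene names. MIER1 was picked because its signal differed between the fertility groups, so its group difference is given as a description and carries no test. The other genes were picked by name, for their known part in the same or related complexes, but with earlier results of these data known.

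The study asked which sperm transcripts differ between high- and low-fertile Murrah buffalo bulls, all of them breeding bulls classed by field conception rate. RNA of Percoll-selected sperm was combined in equal amounts from 2 bulls per pool, which gave 2 high-fertile pools and 2 low-fertile pools, and each pool was hybridized to 1 array. The arrays carry bovine (Bos taurus) probes, so buffalo RNA was read with cattle sequences, and how well each probe matches the buffalo transcript is not given in the sources used here. Labelling started from an oligo dT primer, with a single dye, and the 4 arrays lay on 1 slide, with each group in a slide row of its own, so the row and the fertility of the bulls cannot be told apart. Nothing says which bulls are in which pool, and the pool is the replicate throughout (n = 2 per group). With 2 pools against 2, an exact permutation test cannot give a two-sided p below 0.333.

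Acetyl groups on histone tails loosen chromatin, and histone deacetylases remove them. HDAC1 and HDAC2 work as a pair inside larger complexes: MIER proteins, MTA proteins of the NuRD complex and RCOR1 of the CoREST complex each bind the pair through related domains, while HDAC3 works with the NCoR and SMRT corepressors. In the testis, histones become strongly acetylated in elongating spermatids before most of them are replaced by protamines. Ejaculated sperm transcribe little, and the RNA measured in them is largely what spermatogenesis left behind. In pooled sperm RNA, fewer cells that carry a transcript and less of it per cell cannot be told apart.

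The arrays hold 5 MIER1 probes of 60 bases. The sequences of 4 of them are shown because the probes gave very different signals, and because the brightest holds a repeat that is taken up again below. Each is written 5′ to 3′ on the strand of the transcript, with its start in the transcript and its Btau_3.1 position on chromosome 3, minus strand, as the files give them. Capitals mark the longest run of the repeated unit GGA, in any phase, where it reached 6 bases. The probes at positions 292 and 1016 are given whole, and of those at 3377 and 3852 the last 30 bases are given.
MIER1 position 292, chr3:84072164-84072223: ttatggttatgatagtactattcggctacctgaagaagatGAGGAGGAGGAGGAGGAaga
MIER1 position 1016, chr3:84042050-84042109: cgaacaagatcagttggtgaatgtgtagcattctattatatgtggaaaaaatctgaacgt
MIER1 position 3377, chr3:84032926-84032985: cgtgagctctttgttgttttgttttaccta
MIER1 position 3852, chr3:84032451-84032510: cagccactataacttgataagtcattgcac

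No stretch of more than 10 bases is shared between any 2 of the 5 probes. The files do not say in which exon or untranslated region a probe lies. Their GC content was 43.3% for the probe at position 292, 38.3% at 3377 and 35% for the other 3.

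The probe at position 292 was well above background on all 4 arrays, a mark that the scanner software sets. Its processed signal, a background-subtracted brightness in arbitrary units, was 53.6 (pool 1) and 45.5 (pool 2) for the high-fertile bulls, and 393.4 (pool 1) and 346.7 (pool 2) for the low-fertile bulls. Both low-fertile pools lay far above both high-fertile pools. After log2 transformation and subtraction of the 75th percentile of each array, the levels were 0.55 and 0.29 in the high-fertile pools (mean 0.42 ± 0.18, SD, n = 2) and 3.41 in each low-fertile pool. The log2 difference, low-fertile minus high-fertile, was 2.99, a 7.94-fold higher signal, and 1.85 under normexp background correction. It ranked at 17 among the 21033 probes that entered the fit (those with the mark on the 2 arrays of a group, in either group), and at 6 among the 12552 that were so on all 4 arrays.

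The probe at position 4213 was also well above background on all 4 arrays. It read 47.7 and 42.8 in the high-fertile pools, against 63.4 and 52.4 in the low-fertile pools. The groups did not overlap here either, and the log2 difference was 0.44 (levels 0.29 ± 0.12 and 0.73 ± 0.06, SD, n = 2 each), a 1.36-fold higher signal. The difference was 0.14 under normexp background correction and 0.07 under scaling to spike-in probes. Low-fertile pools lay above high-fertile pools without overlap for 33.6% of the probes tested. The differences of these 2 MIER1 probes stood 2.55 log2 units apart, on the same arrays and for the same gene name.

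The other 3 MIER1 probes were not well above background on any array. At position 1016 the signals were 4.38 and 6.34 in the high-fertile pools, against 3.95 and 8.34 in the low-fertile pools. At position 3377 they were 4.11 and 4.11 against 3.65 and 7.39. At position 3852 they were 5.14 and 8.13 against 3.15 and 6.1. In all 3 the groups overlapped, and no fold is given for them. The measured log2 differences of these faint signals were 0.21, 0.42 and -0.47. The dim probe at 3852 lies 361 bases before the detected one at 4213 in the transcript. The large difference was read by a single probe, the one nearest to the 5′ end.

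**Figure D1:**
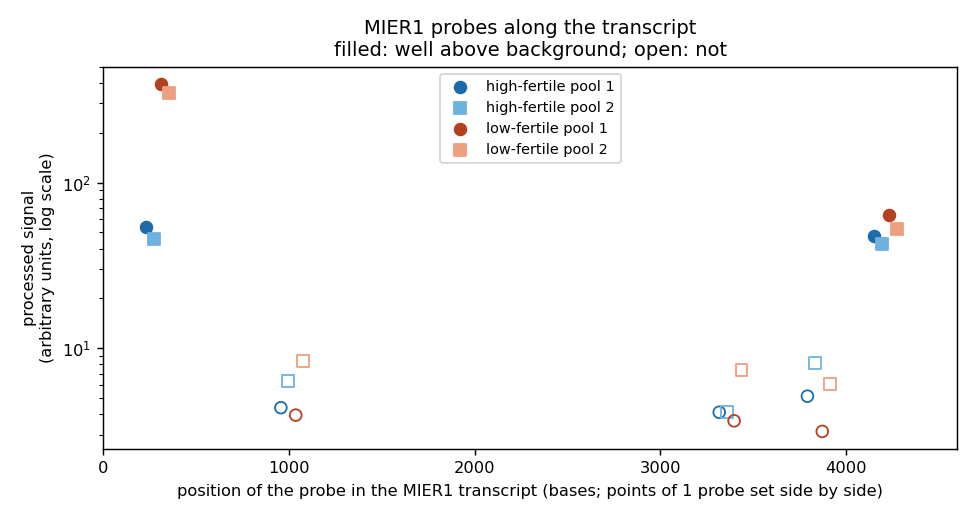
Processed signal (arbitrary units, log scale) of the 5 MIER1 probes against the position of the probe in the transcript (bases), with 1 point per pool and filled points for signals well above background. At position 292 the low-fertile pools sit at 393.4 and 346.7 and the high-fertile pools at 53.6 and 45.5, at position 4213 all 4 pools sit between 42.8 and 63.4, and the 3 probes between them stay at or below 8.34.

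Every probe of the 20 was printed on the array as a single spot. None of the 6 spots nearest to the MIER1 probe at position 292 was off by over 2 log2 units from its median over the arrays, on any array. With 2 arrays per group that median lies between the groups, so a difference shared by both arrays of a group is only partly seen. Among the 6, the spot of XM_002695227 read 486.5 and 322.2 in the high-fertile pools, against 103.2 and 103.1 in the low-fertile pools. The nearest named neighbours on the chromosome were dim: the SLC35D1 probe read between 3.68 and 7.55, and no probe of another name within 100000 bases of the MIER1 probes was well above background on any array (3 probes).

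Seen across the chip, the repeat in the probe at position 292 was rare and the tested probes that share it gave higher signals in the low-fertile pools. A run of the unit GGA, read in any phase on the probe strand with no mismatch, reached 17 bases in this MIER1 probe, and 8 of 51282 probes (0.0156%) held a run of 14 or more bases. The cut-off was chosen after the values were seen, so what follows is a description with no test. Of the 8 probes, 7 gave higher signals in both low-fertile pools than in either high-fertile pool, and these were the 7 that entered the fit. Over all probes tested, this was so for 33.6%. Of the 7, 6 were well above background on all 4 arrays, while PELP1 had entered through the low-fertile arrays, where it is high, so its place among them is in part fixed by the filter. Their log2 differences ran from 1.26 to 2.99 with a median of 2.33, or 2.06 without MIER1 and 1.11 for all 7 under normexp background correction, beside a median of -0.00 over all probes tested. Differences above 1 were found in 3.06% of all probes tested.

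The sequences of the 7 probes other than that of MIER1 are shown as 30 bases around the run, which is in capitals, so that the shared letters can be compared with those above.
C7H19orf66, chr7:13117840-13117899, plus strand: gacctgaAGGAGGAGGAGGAGGAagaggag
PELP1, chr19:27036204-27036263, plus strand: aacagcagtgatGAGGAGGAGGAGGAagaa
FRAT1, chr26:20734015-20734074, minus strand: aggaaGAGGAGGAGGAGGAcagcttcctac
TRH, chr22:57366774-57366833, minus strand: catcctggcaaaagGGAGGAGGAGGAGGca
ENSBTAT00000027897, chr18:12940901-12941503, minus strand: cgagtcggacagtGAGGAGGAGGAGGAagc
ENSBTAT00000060839, no position in the files: ccctgaggaggacGAGGAGGAGGAGGAatg
XM_002692090, no position in the files: acagaaggaggcattGAGGAGGAGGAGGAG

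C7H19orf66, whose human relative restrains virus translation, read 172.5 and 94.7 in the high-fertile pools, against 1081 and 837.6 in the low-fertile pools, a log2 difference of 2.98. FRAT1, which binds the kinase GSK3 in Wnt signalling, read 44.7 and 38.2 against 218.6 and 175.1, a difference of 2.33. TRH, which encodes the precursor of thyrotropin-releasing hormone, read 34.4 and 38.7 against 131.7 and 108.8, a difference of 1.80. The levels of all 3 were apart between the groups, as at the MIER1 probe and, in the same direction, for 33.6% of all probes tested.

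PELP1, a coactivator of nuclear receptors, read 17.4 and 10.9 in the high-fertile pools, not well above background, and 107.5 and 86.5 in the low-fertile pools. The low-fertile level was thus at least 7.43-fold higher, with a measured log2 difference of 2.89. The probes named by the transcripts ENSBTAT00000027897 and ENSBTAT00000060839 had log2 differences of 1.63 (21 and 18.5 against 68.5 and 48.4) and 1.26 (53.9 and 74.2 against 131.4 and 117). The probe of XM_002692090, which was not tested, read 8.86 and 11.7 against 33.7 and 11.7, so the groups did not separate there.

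For 4 genes with a run of 14 or more bases, 9 other probes had been tested, and all 9 had a signed log2 difference below that of the repeat probe of the same gene. Their log2 differences ran from -2.28 to 0.92 with a median of 0.26. The 3 other PELP1 probes gave 0.43, 0.26 and 0.32, against 2.89 for the repeat probe. The other TRH probe gave -2.28, larger in size than the 1.80 of its repeat probe and in the opposite direction, and the other tested MIER1 probe is the one at position 4213.

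The median group difference was larger in classes with longer runs. Probes with runs of up to 5 bases had a median log2 difference of -0.02 (19954 probes), those with 6 to 7 bases 0.15 (935 probes), those with 8 to 10 bases 0.21 (126 probes) and those with 11 to 13 bases 0.83 (11 probes, 10 of them higher in the low-fertile pools). For the reverse complement of the unit, TCC, the medians were 0.05 at 6 to 7 bases (1556 probes), -0.00 at 8 to 10 (214 probes), -0.45 at 11 to 13 (12 probes) and -0.36 at 14 or more (2 probes). Runs of GAA of 14 or more bases, another purine repeat, had a median of 0.12 over 4 probes, and those of GCA 0.18 over 8 probes. For GCT the medians were 0.13 at 6 to 7 bases (1475 probes) and 0.16 at 8 to 10 (246 probes). They were 0.24 at 11 to 13 bases (21 probes) and 0.01 at 14 or more (4 probes). The classes with runs of 11 or more bases are small, and all share the 4 arrays. Base composition also moved with the difference and with the run. Tested probes with up to 30% GC had a median of -1.08 (26 probes), those with over 40 and up to 50% had -0.12, those with over 50 and up to 60% had 0.23 and those with over 70% had 0.33. The median GC content was 45% in the class with GGA runs of up to 5 bases and between 55 and 60% in the classes with longer runs, while the MIER1 probe has 43.3%. Whether the repeat or base composition has a part in the MIER1 signal was not tested.

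**Figure D2:**
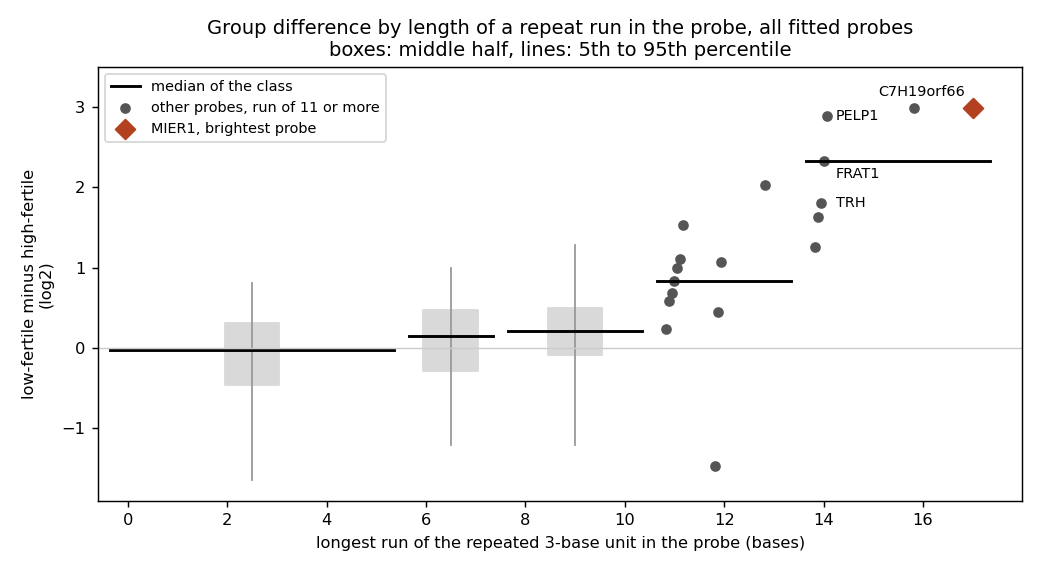
Log2 difference, low-fertile minus high-fertile, against the longest run (bases) of the repeated 3-base unit in the probe, over all 21033 probes tested; black lines are class medians, boxes and thin lines give the spread of the 3 large classes, and points are single probes with runs of 11 or more bases. The class median goes from -0.02 at runs of up to 5 bases to 2.33 at 14 or more, where the MIER1 probe (diamond) sits at 2.99.

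By rule, the genes whose probe had levels most like those of the MIER1 probe on the 4 arrays were also listed, by the Euclidean distance over the 4 normalized log2 levels among probes well above background on all arrays. They were TC462683 (distance 0.82), LTB4R, a leukotriene B4 receptor (1.00), XM_002692427 (1.13), XM_001252793 (1.23) and CNST, which encodes a connexin sorting protein (1.26). Their log2 differences lay between 1.77 and 2.86, a likeness to MIER1 that the choice by these same levels fixed in advance. XM_002692427 held a GGA run of 13 bases, and the other 4 held runs of 3 or 4.

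Of the other 8 genes, 15 probes were on the arrays, and 5 of these, 1 each of MIER2, MIER3, HDAC1, MTA1 and MTA2, were bright enough to be tested. In limma, with Benjamini-Hochberg adjustment over all 21033 probes tested, 1 of the 5 had an adjusted p under 0.05 (HDAC1, lower) and 0 were called higher, where 26.8% of all probes tested were called, 17.6% lower and 9.22% higher. A share of 1 in 5 is near that background and is not a result about these genes as a group. Where the fit was limited to the 12552 probes that had the mark on all 4 arrays, the balance was the other way, with 2714 called higher and 1625 lower. At an unadjusted p under 0.05 in limma the count was also 1 of the 5, beside 8741 of all 21033 probes tested. The median log2 difference of the 5 was -0.04. HDAC2, HDAC3 and RCOR1 had no probe that could be tested.

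**Figure D3:**
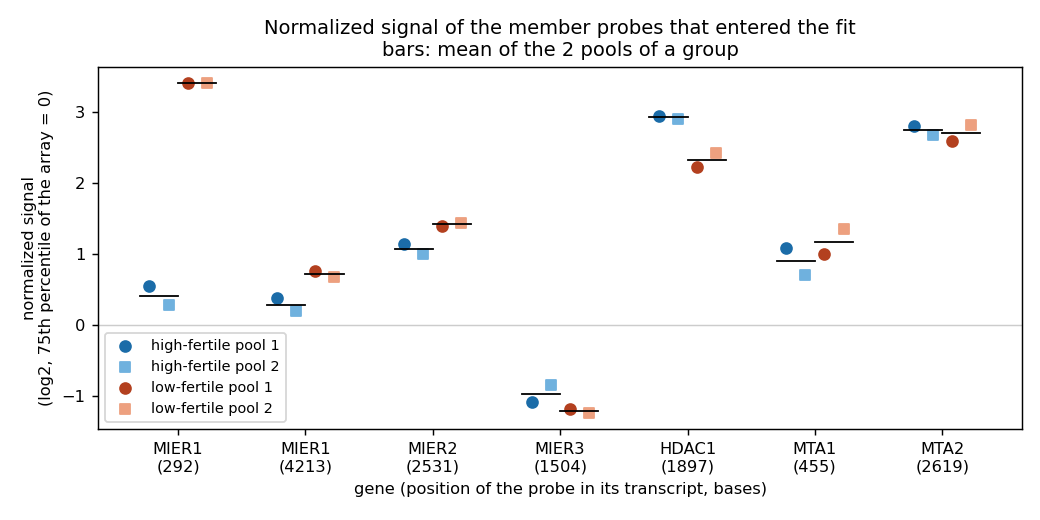
Normalized signal (log2, with the 75th percentile of the array at 0) of the 7 probes that entered the fit, with 1 point per pool and a bar at the mean of each group's 2 pools. MIER1 at position 292 goes from a mean of 0.42 to 3.41, HDAC1 from 2.93 to 2.33, and the group means of the other 5 probes lie less than 0.5 apart.

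HDAC1, the catalytic subunit that MIER1 binds, was bright at position 1897 of its transcript. This probe (chr2:125444885-125444944, minus strand) read 284.4 and 278.1 in the high-fertile pools, against 173.5 and 176.5 in the low-fertile pools. The groups did not overlap, with the low-fertile pools below, as was so for 35.5% of all probes tested. The level fell by 0.60 on the log2 scale (2.93 ± 0.03 to 2.33 ± 0.15, SD, n = 2 each; standard error of the difference 0.15, adjusted p = 0.0391, limma), which is a 1.51-fold difference. With 1 pool left out, the lone pool of a group was assumed to vary like the other group, and no call was made: the difference stayed between -0.70 and -0.50 and the adjusted p between 0.0546 and 0.149, and over all 16 alternatives it passed in 8, with adjusted p from 0.00207 to 0.277. Under spike-in scaling the difference was -0.97. The second HDAC1 probe, at position 855, read 4.09 and 5.4 against 3.78 and 7.56, without the mark on any of the arrays.

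MIER2, a relative of MIER1 that also binds deacetylases, read 80.7 and 74.1 in the high-fertile pools, against 97.5 and 88.6 in the low-fertile pools (position 2531, chr7:42157532-42157591, minus strand). The groups did not overlap, but the log2 difference of 0.35 ± 0.15 (standard error) did not pass the test (adjusted p = 0.129, limma). On the array of high-fertile pool 2, 2 of the 6 spots nearest to this probe were off by over 2 log2 units, and with such spots left out the difference was 0.29. Scaled to 7 spike-in probes instead, it was -0.02. That scaling moved the median of all tested probes to -0.38, and the calls over all probes from 1940 higher and 3692 lower to 578 and 6750. MIER3 read 17.4 and 20.8 in the high-fertile pools, well above background, and 16.4 and 14 in the low-fertile pools, not well above it (position 1504, chr20:23913388-23913447, plus strand). The measured log2 difference of -0.25, a 1.19-fold higher signal in the high-fertile pools, did not pass the test (adjusted p = 0.288, limma). It was -0.12 under normexp background correction and -0.62 under spike-in scaling. MIER3 entered the fit through the high-fertile arrays alone, so its test is in part fixed by the filter.

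MTA1 and MTA2 are the subunits through which NuRD holds HDAC1 and HDAC2. The MTA1 probe at position 455 read 77.9 and 60.8 in the high-fertile pools, against 74.2 and 83.9 in the low-fertile pools. Its groups overlapped, and the log2 difference of 0.28 ± 0.21 (standard error) did not pass the test (adjusted p = 0.35, limma). A second MTA1 probe, at position 618, read 15.1 and 17.8 against 25.2 and 23.2 and was well above background in low-fertile pool 1 alone, so it was not tested. Neither MTA1 probe has a genome position in the files.

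MTA2 read 258.1 and 238.6 in the high-fertile pools, against 223.3 and 231.3 in the low-fertile pools at position 2619. The pools overlapped, with a log2 difference of -0.04 ± 0.16 (standard error; adjusted p = 0.866, limma), and -0.41 under spike-in scaling. Its second probe starts 56 bases further on and read 4.71 and 4.21 against 3.8 and 7.33, not well above background on any array. Both probes carry AATAAA, the usual signal for adding the poly(A) tail, which 8.35% of the probes on the array hold (its reverse complement TTTATT: 3.3%, no overlap with other motifs counted). The 30 bases around it are shown since the bright and the dim probe lie next to each other, with a few bases in common, at chr29:42627293-42627407, minus strand, with the signal in capitals. A match is a description of the letters and says nothing of whether the site is used.
MTA2 position 2619, bright: gttctcagaAATAAAgaccttttgtctgtt
MTA2 position 2675, dim: ttatagtaacaAATAAAaagctgttttctt

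HDAC2 was not reliably detected. The probe at position 250 read 418.5 in high-fertile pool 1 and 8.35 in high-fertile pool 2, against 5.82 and 6.99 in the low-fertile pools. On the array of high-fertile pool 1, 4 of the 6 nearest spots were off by over 2 log2 units from their median over the arrays, and 1 of them read 1847 there and between 3.53 and 6.95 on the other arrays. The high value thus lay within a bright patch of that array, and the probe was not tested. The probe at position 1146 read 13.9 and 8.27 in the high-fertile pools, against 4.39 and 6.12 in the low-fertile pools. The probe at position 1512 read 12.1 and 8.78 against 6.5 and 7.49. The groups did not overlap at either, but neither was well above background on any array, so no fold is given.

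HDAC3 gave faint signals with both probes. At position 1828 it read 17.5 and 14.1 in the high-fertile pools, against 8.79 and 7.5 in the low-fertile pools. The groups did not overlap, but no array was marked as well above background, so no fold is given. At position 988 it read 10.3 and 18.8 against 13.8 and 6.06, which overlapped. RCOR1, the CoREST scaffold, has 2 probes that share 46 bases and so count as nearly the same site. At position 958 the signals were 10.6 and 4.87 in the high-fertile pools, against 14.8 and 7.46 in the low-fertile pools, which overlapped. At position 972 they were 3.54 and 3.46 against 9.08 and 6.01, without overlap. Both probes were below the mark on all arrays, so no fold is given.

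Detection differed between probes of the same gene. Of the 20 probes, 6 had the mark of the scanner software on all 4 arrays and 11 had it on none, with signals of those 11 between 3.15 and 18.8. For 5 member probes the genome span exceeds 70 bases, so their bases do not lie on the genome as 1 block. None of these 5 was tested, against 6 of the 13 with a shorter span. Of the 5, the HDAC2 probe at position 250 had the mark on 1 array, within the bright patch described above. Over the whole array, 31.9% of the probes with a span over 70 bases were tested and 40.8% of those with a shorter one. Low-fertile pool 2 had 13033 probes well above background, and the other arrays between 23228 and 25642, which bears on every probe read as dim in that pool.

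**Figure D4:**
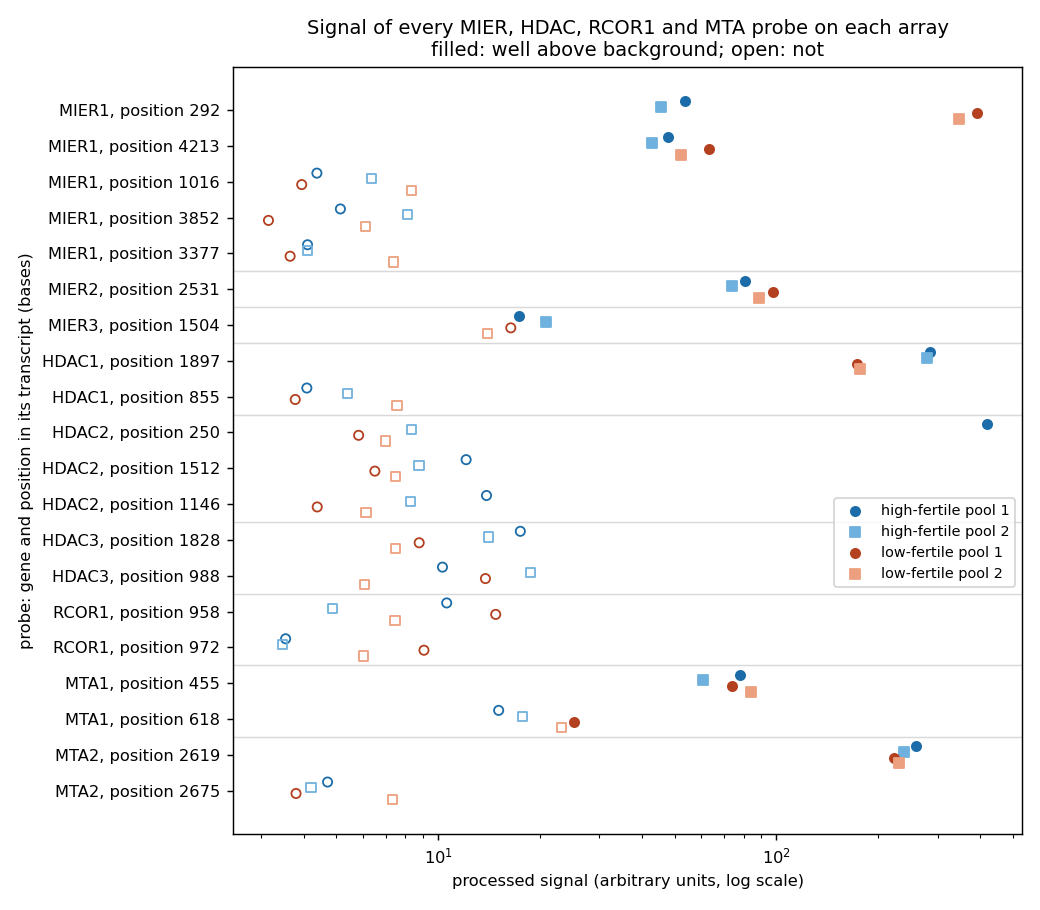
Processed signal (arbitrary units, log scale) of all 20 probes of the 9 genes, named by gene and by position in the transcript, with 1 point per pool and filled points for signals well above background. Among the tested probes, MIER1 at position 292 shows the widest gap between the groups, and the HDAC2 probe at position 250 is high on 1 array alone.

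The other known subunits of class I HDAC complexes were taken as a list of 52 genes, of which 45 were on the arrays and 29 had a tested probe. Each gene was represented by its brightest tested probe. In limma, 1 of the 29 was called higher and 5 lower at an adjusted p under 0.05, a share of 20.7% beside 26.8% over all probes tested, and the median log2 difference was -0.26. The mark was on all 4 arrays for 16 of the 29, and the rest entered the fit through the high-fertile arrays alone. Of the 5 called lower, CTBP2 alone had the mark on all 4 arrays, and the other 4 entered through the high-fertile arrays, where they are high. These calls, the count and the median are thus in part fixed by the filter. MBD3, the methyl-binding domain protein of NuRD, rose by 0.53 (adjusted p = 0.0493), with signals of 231.9 and 208.7 in the high-fertile pools, against 316 and 284.3 in the low-fertile pools. BRMS1L, a subunit of the Sin3 complex, read 51.5 and 45.3 against 22.3 and 21.3, a log2 difference of -1.06. ING2, which anchors Sin3 to methylated histone H3, read 39.8 and 42.9 against 22 and 18.4, a log2 difference of -0.95.

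CTBP2, a corepressor found with CoREST, fell by 0.97 by its brightest probe (adjusted p = 0.00974), from 77.8 and 82.6 to 38 and 38.9, while its 3 other tested probes gave -3.09, -0.45 and 0.81. KDM1B and SIN3A, named to complete the count of 5 after their values were seen, had log2 differences of -0.65 and -0.61, where KDM1B was dim in both low-fertile pools and so at least 1.57-fold higher in the high-fertile pools. BRMS1L, ING2 and SIN3A were well above background on 1 of the 2 low-fertile arrays and on both high-fertile arrays. KDM1A, the demethylase partner of RCOR1, had a log2 difference of -0.23 (adjusted p = 0.295, limma), and the NuRD remodellers CHD4 and CHD3 had 0.26 and 0.01. With a pool left out, a group holds a single pool, so the calls of the list in those fits are not read as a result.

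Among 14 other histone deacetylases, 9 were tested and 1 passed in limma, a share of 11.1% beside 26.8% over all probes tested. HDAC11, the single class IV enzyme, rose by 0.70 (adjusted p = 0.0334, limma), from 74.9 and 55.3 to 110.1 and 110. HDAC10, a class IIb enzyme, read 2387 and 2266 against 1805 and 1762, with a log2 difference of -0.30 that did not pass (adjusted p = 0.189, limma). SIRT1, SIRT3 and SIRT5 were not well above background on any array.

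Of 21 enzymes that add acetyl groups, 12 were on the arrays under the names searched and 9 were tested. In limma, 2 were called higher and 3 lower, a share of 55.6% beside 26.8% over all probes tested. Of the 5 calls, those of KAT5 and KAT6B are of probes with the mark on all 4 arrays, and the other 3 probes entered the fit through the group where they are high, so these calls and the count are in part fixed by the filter. KAT5, the catalytic subunit of the NuA4 complex, rose by 0.73 (adjusted p = 0.0296), from 401 and 345.5 to 574 and 591. KAT6A was at least 2.08-fold higher in the low-fertile pools (log2 difference 1.05), with 17.3 and 18.1 in the high-fertile pools, not well above background, and 34.5 and 34.8 in the low-fertile pools. Another tested KAT6A probe, with a GGA run of 8 bases, gave a log2 difference of 2.71. Its relative KAT6B fell by 1.34 (adjusted p = 0.00351), from 120.6 and 123 to 47.7 and 43.1.

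HAT1, which acetylates newly made histones, read 80.7 and 42.3 against 22.2 and 26.1, a log2 difference of -1.54. NCOA1, a nuclear receptor coactivator, had a log2 difference of -1.25 by its brightest probe, and its other tested probe gave 0.72. HAT1 and NCOA1 were well above background on 1 of the 2 low-fertile arrays and on both high-fertile arrays. The acetylating enzymes with calls went both ways, with a median log2 difference of -0.15 over the 9. Of the 9, 5 had the mark on all 4 arrays, so this median is in part fixed by the filter too.

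**Figure D5:**
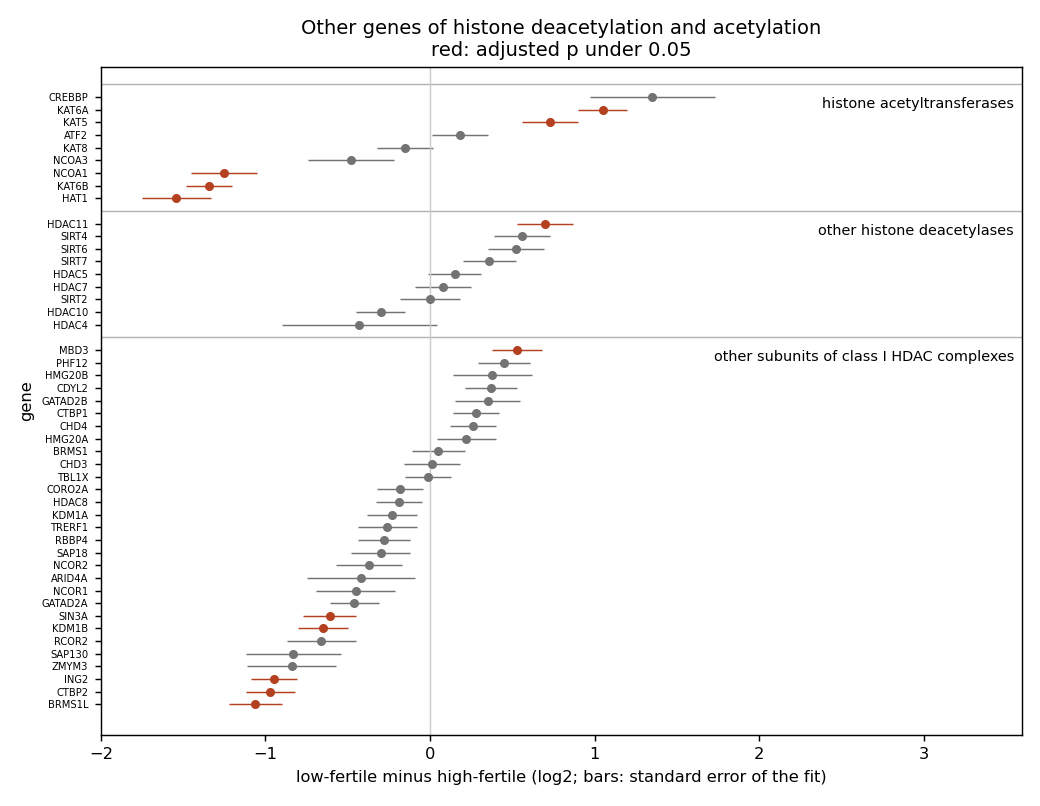
Log2 difference, low-fertile minus high-fertile, of the tested genes of 3 lists, with the standard error of the fit as bars and red points for an adjusted p under 0.05. Of the 29 complex subunits, 1 was called higher and 5 lower, of the 9 other deacetylases 1 higher, and of the 9 acetyltransferases 2 higher and 3 lower; KDM1B, KAT6A and CREBBP were dim on both arrays of 1 group.

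The labelled cell type was checked by marker genes. Of 18 sperm and late spermatid markers, PRM1, TNP1, ODF1 and ACR were well above background on all 4 arrays, and 7, among them AKAP4, SMCP and CRISP2, were so on none, and the processed signals of the list summed to 1025 and 823.1 in the high-fertile pools, against 836.1 and 803.7 in the low-fertile pools. PRM2 read 179.9 in high-fertile pool 1, its only array with the mark, and between 9.58 and 14.6 in the other pools. Of 12 leukocyte markers, for 9 at least 1 probe had the mark on every array, for CD3E and CD48 none did, and their processed signals summed to 27536 and 27225 in the high-fertile pools, against 31931 and 31059 in the low-fertile pools. Most of that sum came from LYZ (12423 to 16233) and PTPRC (6981 to 11503). The sums of 8 epithelial markers were 931.4 and 936 against 995.3 and 978.4 (EPCAM and CDH1 not well above background), those of 6 red cell markers 324.6 and 347.3 against 385.2 and 398.1 (ALAS2 not above), and those of 7 testis somatic cell markers 862.6 and 979 against 917 and 910.5. Of the 33 markers tested, 5 were called (15.2%, beside 26.8% over all probes): PRM1 (0.67), PTPRC (0.78), HBB (1.24) and STAR (0.79) rose and CD3D fell by 1.05 on the log2 scale past an adjusted p of 0.05 in limma. HBB had entered the fit through the low-fertile arrays, where it is high, so its call is in part fixed by the filter. The other tested PTPRC probe gave a log2 difference of 0.18, and that of PRM1 0.45. The leukocyte, epithelial and red cell sums moved in the same direction as MIER1, and their part in the values above was not tested.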

How the data were processed

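For each array the authors deposited a scanner file of linear intensities, with the background already subtracted by Agilent Feature Extraction 11.5.1.1, and a table of log2 values that the authors shifted by the 75th percentile of each array. The members and lists were chosen with earlier results of these data known. Processed signals of 61657 spots were taken as log2, without outlier spots and averaged per probe, and were set relative to the 75th percentile of the array, in Python 3.11.15 with pandas 2.3.3. Probes entered the fit if marked as well above background on the 2 arrays of either group (21033 probes). They were tested in R 4.3.3 with limma 3.58.1 and adjusted after Benjamini and Hochberg. The fit was tested on simulated data. No tested probe was saturated. Precision is limited by the number of arrays. Gene names are those of the array design, and all 9 are current RefSeq symbols. Coordinates are those of HGSC Btau_3.1 in the files. Named outside the 9 genes are, per list, the 3 largest changes each way past the adjusted p of 0.05, and the 5 probes nearest in level to the brightest MIER1 probe. KDM1A, CHD3, CHD4, HDAC10, the dim sirtuins, the probes with long GGA runs and, among the markers, those without a call were named after their values were seen. One red cell marker is not reported here. "At least" folds set the bright group's mean against, per array of the dim group, the higher of the probe's own signal and the lowest signal well above background. In the folds given, the probe's own signal was the higher, so they equal the measured folds. Alternatives covered background correction, scaling, filters, outlier spots, bright patches, the replicate number, the deposited table, the methods' t-test and each pool left out. No paired numbering was found (r = 0.00548 between the pool 1 minus pool 2 differences of the groups, over 21024 probes).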

Additional observations from a re-analysis of the deposited data

How the results depend on the processing

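The log2 difference of the MIER1 probe at position 292 moved to 1.85 under normexp background correction, which adds an offset of 50 and compresses faint signals, and to 2.62 under spike-in scaling, and lay between 2.86 and 3.12 under all other alternatives, each pool left out included. The filters on signal, the replicate block and the methods' t-test cannot change this difference, so its lack of change there was fixed in advance. The distance between the differences at positions 292 and 4213 moved to 1.70 under normexp. Over all 21033 probes tested, 1940 were called higher and 3692 lower in the main fit, and 2849 and 4446 under normexp. With spike-in scaling these were 578 and 6750, and with the replicate block 1659 and 3672. The count of called partner probes (1, HDAC1) was 2 under normexp, where MIER2 passed at 0.24. It was also 2 under spike-in scaling, where MIER3, which entered the fit through the high-fertile arrays alone, passed at -0.62. It was 0 in limma with no filter on dim probes, with the filter on positive and significant signals and with the replicate number as a block, 0 with the methods' t-test, and 0 with each pool left out. The list of other complex subunits gave 6 calls, 12 under spike-in scaling, 0 with no filter, 0 with the positive-signal filter and 0 with the methods' t-test, and 1 to 8 with each pool left out. Over all probes, those 3 settings also gave 0 calls, with 9278, 9796 and 6084 probes at an unadjusted p under 0.05. Calls over all probes also rose under normexp, in both directions. Under spike-in scaling those called lower went from 3692 to 6750. The higher partner and subunit counts under these 2 settings are thus not a result about these genes as a group. With the replicate block the MIER1 difference was 2.99, as it must be with equal groups, and HDAC1 had an adjusted p of 0.0605 (limma). The numbers share no more than a label, so the block says nothing of a weaker effect. No direction was called for MTA1 or MTA2: MTA1 turned to -0.09 and MIER2 to -0.02 under spike-in scaling, where MTA2 was -0.41, and MTA2 turned to 0.04 under normexp and ran from -0.16 to 0.08 with each pool left out, with 0.02 without high-fertile pool 1 and 0.08 without low-fertile pool 1. The median of the probes with a GGA run of 14 or more bases, a result added after seeing the data, lay between 1.11 (normexp) and 2.45. Apart from the filters and left-out pools, which change what enters the fit, the cause was not tested. Signals near background limit what can be said of HDAC2, HDAC3 and RCOR1.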
